A study of Homo sapiens with 27 samples.

Results

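A431 cells given a vehicle control were compared with untreated A431 cells by RNA sequencing. A431 is an established human epidermoid carcinoma line that carries many copies of the gene for the epidermal growth factor receptor, EGFR. The comparison took 6 of the 27 libraries of the series, chosen by their labels, with 3 vehicle control and 3 untreated libraries. All 6 cultures were A431 cells in DMEM with fetal bovine serum, and both groups were labelled 48 h. The untreated cultures received no agent. The nature and amount of the vehicle are not given in the labels. The series design calls the 3 libraries of each group biological replicates, but nothing ties them to separate days or passages. The other A431 groups, which share the fit, received Compound Kushen Injection (CKI, a herbal preparation) at 1 mg/ml, doxorubicin, or both, with 3 libraries each. The remaining libraries came from another cell line and were not used.

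Many of the genes described below are rapid response genes. Immediate early genes, such as FOS, EGR1 and ATF3, are transcribed within minutes of a stimulus from transcription factors already present in the cell, and they encode factors that then act on a further wave of genes. Growth factors, inflammatory cytokines and stress all induce them, and their mRNAs are often short-lived because AU-rich elements in the 3′ untranslated region mark them for decay. NF-κB is a transcription factor that drives cytokine genes and also its own inhibitors, and the ERK branch of the MAPK pathway, downstream of EGFR, likewise induces the phosphatases that switch it off.

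Library totals lay between 17757206 and 21756536 counts over the 15 A431 libraries, so that 3 counts of the unadjusted total corresponded to between 0.138 and 0.169 CPM (counts scaled to a common library size). All other CPM values use library sizes adjusted for composition by TMM. The cells carried the markers of their line. EGFR was at 1960, 1941 and 2067 CPM in untreated libraries 1, 2 and 3, and at 2308, 2460 and 2285 CPM in the vehicle control. KRT5, a basal keratin, lay between 2507 and 3851 CPM in the 6 libraries, and PTPRC, the leukocyte marker CD45, had no count in any of them. Some markers of other cell types were present at lower levels. The endothelial marker CDH5 lay between 16.0 and 24.2 CPM. Of the mesenchymal markers, COL1A1 lay between 13.4 and 28.6 CPM and VIM between 5.76 and 8.27 CPM. None of the 10 epidermoid markers, 6 mesenchymal markers or 2 tested immune and endothelial markers was called by edgeR or DESeq2 as counted. An unadjusted p under 0.05 in edgeR's test was found for 10 of these 18 genes, beside 49.3% of all tested genes. With the offsets edgeR called 1 marker, the keratin gene KRT17, higher (1.01).

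The vehicle control libraries differed among themselves more than other A431 replicates did, and the difference followed the GC content of the transcripts. Within the vehicle control group, the rank correlation (Spearman's rho) over genes between GC content and the difference of 2 libraries in log2 CPM had a size of 0.36 to 0.58. The same value was 0.10 to 0.30 within the untreated group and 0.05 to 0.26 within the other 3 groups. These correlations are descriptions over genes, which are not independent replicates. The test was therefore run both as counted and with per-library offsets for GC content and transcript length. Values below are as counted unless the offsets are named.

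Of 15881 genes tested, 404 were called by edgeR's quasi-likelihood test, which here means a Benjamini-Hochberg adjusted p under 0.05 together with a change of over 1 in either direction on the log2 scale. Of these, 166 rose in the vehicle control (1.05% of tested genes) and 238 fell (1.5%). The rises reached further. A log2 fold change over 2 was found for 56 genes that rose, and one below -2 for 38 that fell. Among genes with a mean over 32 CPM, 55 rose and 9 fell, whereas among genes under 1 CPM, 37 rose and 95 fell. These means were taken over all 15 A431 libraries. They can differ from the level in the 6 compared ones. With the GC content and length offsets, 157 genes rose (0.989%) and 108 fell (0.68%). The share of calls that were rises went from 41.1% to 59.2%. Of the genes called as counted, 126 of those that rose (75.9%) and 91 of those that fell (38.2%) were called again with the offsets, and none was called in the opposite direction. Without the fold threshold, 6748 genes had an adjusted p under 0.05 in edgeR's test, 3682 of them higher and 3066 lower. The 3 vehicle control libraries all lay above the 3 untreated libraries for 23.2% of tested genes and all below for 18.9%, so that separation of the groups was common in this table. In bulk RNA, a change in the make-up of the culture and a change in RNA per cell cannot be told apart.

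The genes of smallest adjusted p that rose were regulators of rapid responses. TNFAIP3 encodes A20, a ubiquitin-editing enzyme that restrains NF-κB. It was at 85.8, 84.3 and 78.9 CPM in the untreated libraries and at 862, 853 and 815 CPM in the vehicle control, a log2 fold change of 3.34 ± 0.06 (SE, n = 3 per group, edgeR quasi-likelihood adjusted p = 1.2e-21). The 3 vehicle control libraries lay close together and far above the untreated ones. ATF3, a stress-induced transcription factor of the ATF/CREB family, went from 12.2, 10.6 and 14.2 CPM to 501, 426 and 390 CPM (log2 fold change 5.16 ± 0.12, edgeR adjusted p = 3.3e-19). KLF6, a zinc finger transcription factor, went from 51.6, 47.7 and 56.4 CPM to 537, 543 and 485 CPM (3.33 ± 0.08, edgeR adjusted p = 1.2e-18). DUSP1, a nuclear phosphatase that inactivates MAP kinases, went from 26.9, 21.8 and 28.8 CPM to 278, 325 and 323 CPM (3.58 ± 0.09, edgeR adjusted p = 2.8e-18). For these genes the offsets moved the log2 fold change little, to 3.23 for TNFAIP3, 5.10 for ATF3, 3.18 for KLF6 and 3.78 for DUSP1. TNFAIP3 shares exon positions with WAKMAR2, and unstranded counts may not tell these genes apart. The same holds, with other neighbours, for NFKBIZ, ERRFI1, DUSP6, CCN2, INHBA, SERPINB2, PTGS2, HMGCS1, ALDH3A1, KRT23, KLK5, H3C4, MXD1, MACC1, KRT17 and EGFR.

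**Figure D1:**
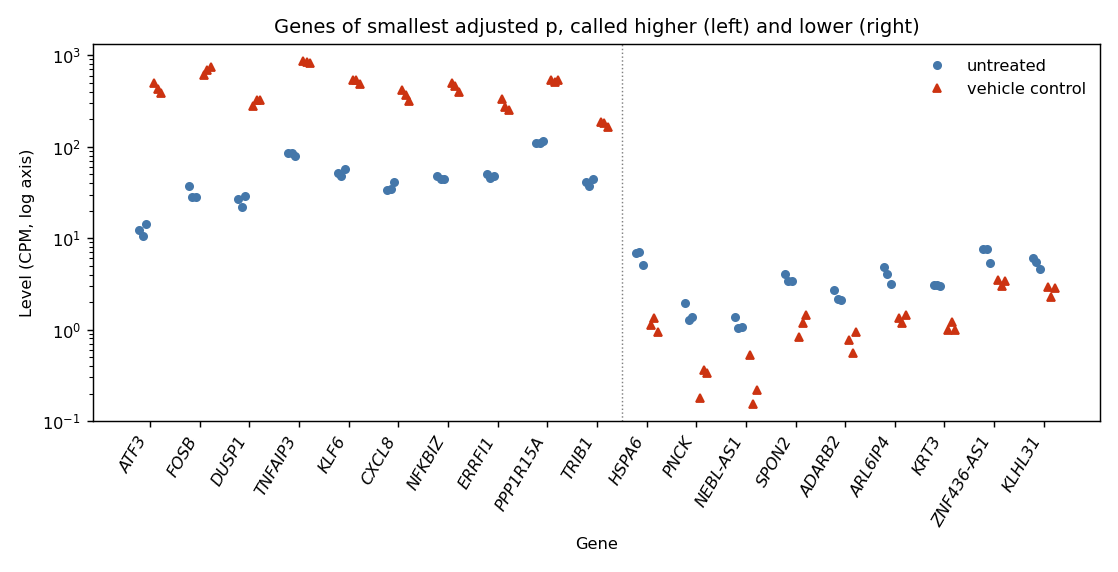
Level in CPM (log axis) of the 10 genes of smallest adjusted p called higher and of 9 of the 10 called lower, among genes called both as counted and with the offsets, ordered by log2 fold change, with each point 1 library (circles, untreated; triangles, vehicle control). The libraries of the 2 groups do not overlap for any gene shown, and the 9 genes shown that fell were under 10 CPM in every library.

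The promoters of TNFAIP3 and DUSP1 are shown because both genes rose steeply and both windows hold a recognition motif of an inducible factor. The windows run from 250 bases upstream to 50 bases downstream of the annotated start (RefSeq, GRCh38.p14), written 5′ to 3′ on the strand of the gene with motif matches in capitals.
TNFAIP3, chr6:137867009-137867308, plus strand: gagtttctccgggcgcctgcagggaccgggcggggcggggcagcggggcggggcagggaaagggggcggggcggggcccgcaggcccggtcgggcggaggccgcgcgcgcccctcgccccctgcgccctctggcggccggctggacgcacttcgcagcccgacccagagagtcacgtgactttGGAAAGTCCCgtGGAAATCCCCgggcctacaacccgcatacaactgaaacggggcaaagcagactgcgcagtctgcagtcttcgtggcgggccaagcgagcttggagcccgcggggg
DUSP1, chr5:172771146-172771445, minus strand: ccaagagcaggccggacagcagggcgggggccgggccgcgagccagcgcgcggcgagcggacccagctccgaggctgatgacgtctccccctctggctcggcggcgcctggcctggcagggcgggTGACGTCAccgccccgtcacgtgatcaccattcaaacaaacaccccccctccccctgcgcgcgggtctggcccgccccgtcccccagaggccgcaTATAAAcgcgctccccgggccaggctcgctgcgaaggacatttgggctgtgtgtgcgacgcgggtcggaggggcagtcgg
In the TNFAIP3 window the capitals mark 2 matches to the 10-base NF-κB motif, which begin 67 and 55 bases upstream of the start. In the DUSP1 window they mark a cyclic AMP response element (TGACGTCA), the motif of the ATF/CREB family, which begins 125 bases upstream, and a TATA box (TATAAA), which begins 30 bases upstream. Over all 27305 promoters in the table, searched on both strands, 32% held the NF-κB motif, 1.98% the cyclic AMP response element and 12% the TATA box letters. The windows of ATF3 and KLF6 held none of these motifs, nor the AP-1 motif (TGAGTCA or TGACTCA) or the CArG box bound by serum response factor. For these genes only this window was searched, so any other start site is not covered. A match is a description of the letters and not evidence of binding.

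Of 26 immediate early and stress transcription factors tested, 13 rose and none fell, with a list median log2 fold change of 1.26 beside 0.00 over all genes tested. With the offsets 17 rose, and the median was 1.56. FOS, a subunit of the AP-1 factor, was at 146, 112 and 135 CPM in untreated cells and at 692, 795 and 744 CPM in the vehicle control (2.503 ± 0.09, edgeR adjusted p = 8.9e-16). Its relative FOSB went from 37.5, 28.0 and 28.1 CPM to 609, 697 and 747 CPM (4.46 ± 0.11, edgeR adjusted p = 2.8e-18). EGR1, a zinc finger factor induced by ERK signalling, went from 137, 112 and 117 CPM to 745, 894 and 951 CPM (2.82 ± 0.10). In all 3 genes each vehicle control library lay above each untreated one, and with the offsets the values were 2.62, 4.67 and 2.99. JUN, the partner of FOS, also rose (1.43 ± 0.09), and NR4A1, an orphan nuclear receptor, rose from about 14 to between 43.0 and 55.1 CPM (1.81 ± 0.09). The other genes of the list that rose were EGR2, EGR3, KLF2, IER2, NR4A2 and BHLHE40. JUNB, JUND, KLF4 and MAFF did not pass the fold threshold as counted, with log2 fold changes of 0.85, 0.48, 0.97 and 0.80, and rose with the offsets (1.36, 1.15, 1.16 and 1.16). IER5 and KLF10, on the other hand, had log2 fold changes of -0.15 and 0.21.

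Of 25 cytokine and chemokine genes tested, 13 rose and none fell, with a list median log2 fold change of 1.22. With the offsets the counts were the same and the median was 1.17. CXCL8 encodes interleukin 8, a chemoattractant of neutrophils. It was at 33.5, 34.3 and 41.6 CPM in the untreated libraries and at 412, 366 and 313 CPM in the vehicle control (3.32 ± 0.10, edgeR adjusted p = 3.1e-17). CXCL2, a chemokine of the same class, went from 13.8, 10.98 and 12.9 CPM to 76.7, 68.8 and 63.2 CPM (2.47 ± 0.09). IL1A, an alarmin stored by keratinocytes, went from 179, 193 and 185 CPM to 898, 705 and 649 CPM (2.02 ± 0.08), and IL1B from 153, 166 and 173 CPM to 508, 457 and 453 CPM (1.53 ± 0.06). The groups did not overlap for any of these genes, although vehicle control 1 was the highest library for each of them. With the offsets the values were 3.04 for CXCL8, 2.41 for CXCL2, 1.80 for IL1A and 1.498 for IL1B. CSF2, which encodes the growth factor GM-CSF, rose by 2.22 ± 0.12 and CCL20, a chemokine for dendritic and T cells, by 2.18 ± 0.16 on the log2 scale. TNF rose from between 0.110 and 0.505 CPM to between 1.27 and 1.58 CPM, at a depth where 3 counts of the unadjusted total are worth between 0.138 and 0.165 CPM. CXCL1, CXCL3, CXCL10, IL24, IL36G and LIF completed the 13. IL6 had a log2 fold change of 0.58, and IL11 of 0.08.

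AU-rich elements were searched in the longest annotated transcript of each gene, as the nonamer TTATTTATT. It was present in 21.4% of the genes that rose both as counted and with the offsets, in 7.78% of those that fell both ways, and in 11.2% of all tested genes. The share among all genes itself varied with base composition, since the nonamer holds no G or C. Sites in 5 of the genes that rose are shown because these elements are the known decay signals of this gene class. Each stretch of 29 bases lies in the 3′ untranslated region of the transcript (GENCODE, GRCh37), is written 5′ to 3′, and has the nonamer in capitals.
CXCL2, chr4:74963307-74963335, minus strand: agtcttctatTTATTTATTTATTTATTta
CXCL8, chr4:74608381-74608409, plus strand: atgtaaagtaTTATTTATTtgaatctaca
DUSP1, chr5:172195646-172195674, minus strand: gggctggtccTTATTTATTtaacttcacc
FOS, chr14:75748763-75748791, plus strand: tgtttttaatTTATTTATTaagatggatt
PTGS2, chr1:186643449-186643477, minus strand: atgatcatatTTATTTATTtatatgaacc
In CXCL2 the capitals mark 3 overlapping copies, and the whole transcript held 5. The CXCL8, FOS and PTGS2 transcripts held 1 copy each and the DUSP1 transcript 2. Of 35 named genes that rose and were searched, 10 held at least 1 copy. These letters describe the transcripts and do not measure their stability.

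The NF-κB list held 3 of the rises. Of 20 genes tested, none fell, and the list median log2 fold change was 0.19. The 3 that rose encode inhibitors or regulators of NF-κB, namely TNFAIP3, NFKBIZ and NFKBIA. NFKBIZ encodes a nuclear IκB that modifies NF-κB target choice, and it went from 48.2, 44.8 and 43.97 CPM to 492, 459 and 395 CPM (3.30 ± 0.09, edgeR adjusted p = 9.1e-18). NFKBIA, which encodes the inhibitor IκBα, went from 166, 170 and 173 CPM to 447, 425 and 436 CPM (1.36 ± 0.05). Both genes were separated between groups in every library, and with the offsets their values were 3.17 and 1.45 (list median 0.29). The subunit genes RELA, NFKB1, NFKB2 and RELB had log2 fold changes of -0.06, 0.15, -0.09 and -0.12 as counted, with adjusted p from 0.054 to 0.43 in edgeR's test. With the offsets all 4 had the opposite sign, at 0.16, -0.19, 0.28 and 0.39, with adjusted p from 6e-06 to 0.016 and sizes under the fold threshold. A further subunit gene, REL, was higher as counted (0.77, edgeR adjusted p = 2.1e-05) and with the offsets (0.43). It stayed under the fold threshold both ways. BIRC3, an apoptosis inhibitor that NF-κB induces, had a log2 fold change of 0.92 and did not pass the fold threshold.

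Some feedback regulators of MAPK and EGFR signalling rose, as did 2 EGFR ligands. Of 15 MAPK phosphatases and Sprouty family members tested, 4 rose and none fell (list median log2 fold change 0.50), and 5 rose with the offsets. Beside DUSP1 these were DUSP5 (2.53 ± 0.09), which acts on nuclear ERK, DUSP2 (2.20 ± 0.10) and the cytoplasmic ERK phosphatase DUSP6 (1.38 ± 0.06). SPRY2 and SPRY4, inhibitors of receptor signalling, had log2 fold changes of 0.38 and 0.36. With the offsets the values were 2.75 for DUSP5, 2.69 for DUSP2 and 1.27 for DUSP6. Of 14 genes of the EGFR family list, 3 rose and none fell (median 0.33). ERRFI1, an inhibitor that binds the EGFR kinase domain, went from 49.97, 45.8 and 47.8 CPM to 329, 274 and 254 CPM (2.58 ± 0.08). The ligand HBEGF went from 35.4, 31.7 and 36.7 CPM to 138, 135 and 122 CPM (1.93 ± 0.07), and the ligand EREG from 96.7, 108 and 109 CPM to 465, 435 and 363 CPM (2.01 ± 0.08). With the offsets ERRFI1 stood at 2.42, HBEGF at 1.97 and EREG at 1.697. The receptor gene itself had a log2 fold change of 0.24 ± 0.05, which was 0.08 with the offsets (edgeR adjusted p = 0.17). AREG, another ligand, stood at 0.88 and ERBB2, a receptor, at -0.30. TRIB1, a pseudokinase that binds MAPK components, rose by 2.12 ± 0.07 and was the last of the 10 genes of smallest adjusted p.

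**Figure D2:**
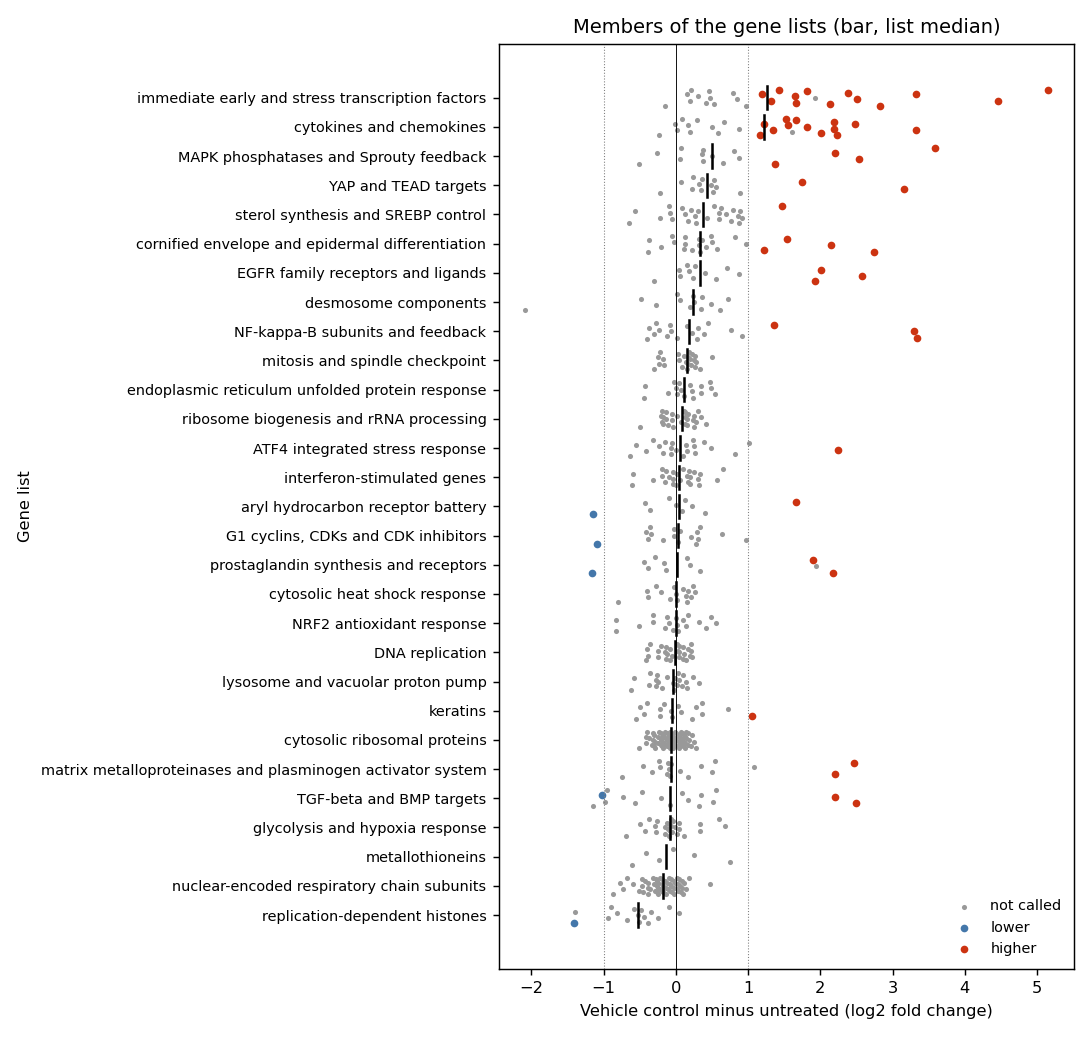
Log2 fold change (vehicle control minus untreated) of each tested member of 29 gene lists, with points coloured by call and a bar at the list median. Immediate early factors and cytokines have medians of 1.26 and 1.22 and 13 members each called higher, whereas the ribosomal and respiratory chain lists have medians of -0.07 and -0.18 and no member called.

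SERPINB2, CCN2, CCN1, GADD45A and PPP1R15A were among the other genes that rose. SERPINB2, a serine protease inhibitor of the plasminogen activator system, went from 81.0, 88.9 and 101 CPM to 594, 470 and 437 CPM (2.47 ± 0.10). The 3 vehicle control libraries lay far above the untreated ones. With the offsets its value was 2.29. Of 14 YAP and TEAD targets, CCN2 and CCN1 rose and none fell, with a list median of 0.43. CCN2, or connective tissue growth factor, went from 3.64, 3.09 and 3.91 CPM to 33.2, 31.5 and 29.8 CPM (3.15 ± 0.11), and CCN1 rose by 1.75 ± 0.06. With the offsets the values were 3.22 and 1.69. Both are also serum-induced genes. GADD45A, a growth arrest and DNA damage inducible gene, went from 194, 182 and 194 CPM to 405, 420 and 455 CPM (1.17 ± 0.06). PPP1R15A, which recruits a phosphatase to the translation factor eIF2α, went from 109, 111 and 117 CPM to 535, 515 and 543 CPM (2.24 ± 0.06, edgeR adjusted p = 4.1e-18). It was the 1 gene called of 22 in the list of the ATF4 integrated stress response, whose median was 0.05.

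Prostaglandin and TGF-β genes moved in both directions. PTGS2, the inducible cyclooxygenase, was at 2.86, 2.59 and 2.15 CPM in untreated cells and at 10.1, 10.3 and 7.97 CPM in the vehicle control (1.89 ± 0.13, and 1.60 with the offsets). The prostaglandin E2 receptor gene PTGER4 rose by 2.18 ± 0.17, whereas the prostacyclin synthase gene PTGIS fell by 1.16 on the log2 scale from a low level (1.27 to 1.55 CPM in untreated cells, edgeR adjusted p = 0.0081). The other 9 of the 12 tested genes of this list were not called, and the list median was 0.01. Over 17 tested genes of the TGF-β and BMP list, the median was -0.08. INHBA, which encodes the activin A subunit, went from 6.92, 6.73 and 7.45 CPM to 45.1, 38.5 and 35.1 CPM (2.49 ± 0.10, and 2.20 with the offsets). ID1, a BMP-induced inhibitor of differentiation factors, fell in every vehicle control library. It was at 498, 508 and 490 CPM in untreated cells and at 240, 244 and 251 CPM in the vehicle control, a log2 fold change of -1.02 ± 0.05 (edgeR adjusted p = 1.7e-12). The 2 groups were far apart for ID1. With the offsets its value was -0.69, past the p threshold but not the fold threshold.

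Epidermal differentiation genes of low level rose in part. Of 23 tested genes of the cornified envelope list, 4 rose and none fell (median log2 fold change 0.34), and 5 rose with the offsets. SPRR2D and SPRR2A, which encode small proline-rich proteins of the envelope, rose by 2.74 ± 0.17 and 2.15 ± 0.16. SPRR2D went from 1.79, 1.82 and 1.70 CPM to 13.5, 10.5 and 11.8 CPM. The SPRR2 genes are near-identical copies, so the division of reads between them is uncertain. SPRR3 rose by 1.54 ± 0.34 and the protease gene KLK5 by 1.22 ± 0.22, both from about 1 CPM or less. Involucrin (IVL) and S100A9 had log2 fold changes of 0.23 and -0.37. Of 17 tested genes of the keratin list, which does not hold KRT3, KRT23 was called as counted, higher by 1.06 ± 0.08 (list median -0.05), and with the offsets KRT17 was called too (1.01). None of 13 tested desmosome genes was called by edgeR or DESeq2 (median 0.24). An unadjusted p under 0.05 in edgeR's test was found for 9 of them, beside 49.3% of all tested genes.

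The sterol synthesis list lay above 0 without passing the fold threshold in most members. Of 26 genes, 1 rose, 16 were higher at an adjusted p under 0.05 in edgeR's test and 2 were lower at that p. Beside these, 3682 of all 15881 tested genes were higher and 3066 lower at that p. The list median log2 fold change was 0.37 (0.47 with the offsets). HMGCS1, which makes the HMG-CoA used for cholesterol, was the gene that rose. It was at 144, 153 and 163 CPM in untreated cells and at 455, 435 and 377 CPM in the vehicle control (1.46 ± 0.06, edgeR adjusted p = 2.9e-14). INSIG1, a brake on sterol synthesis, and the demethylation enzyme gene MSMO1 had log2 fold changes of 0.88 and 0.86 and did not pass the fold threshold either way.

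Genes of the aryl hydrocarbon receptor battery did not move together. CYP1A1, its most inducible target, was at 3.995, 3.42 and 4.23 CPM in untreated cells and at 3.54, 5.11 and 4.82 CPM in the vehicle control, so that the groups overlapped (0.22 ± 0.13, edgeR adjusted p = 0.18). CYP1A1 was at 413 to 437 CPM in the CKI group. Of 10 genes tested, TIPARP rose (1.66 ± 0.08) and ALDH3A1, an aldehyde dehydrogenase, fell. ALDH3A1 went from 51.1, 50.1 and 50.2 CPM to 19.9, 24.3 and 24.1 CPM, a log2 fold change of -1.15 that became -0.82 with the offsets.

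Of the 30 pathway lists, 13 had no member called. They included 78 cytosolic ribosomal protein genes (median log2 fold change -0.07), 60 nuclear-encoded respiratory chain genes (-0.18, and -0.16 with the offsets), 28 DNA replication genes (-0.02), 24 mitosis genes (0.16), 28 ribosome biogenesis genes (0.09), 27 glycolysis and hypoxia genes (-0.09), 26 interferon-stimulated genes (0.04) and 22 lysosome genes (-0.03). The same held for the unfolded protein response (17 genes, 0.11), the cytosolic heat shock response (16 genes, 0.01, a list that does not hold HSPA6), the NRF2 response (19 genes, 0.01) and the metallothionein list (6 tested genes, -0.14), beside the desmosome list. The metallothionein list also holds MTF1 (0.75) and SLC30A1 (0.25), which are not metallothioneins. MT1E, MT1F, MT1X and MT2A stood at -0.04, -0.41, -0.61 and -0.23. Over these 13 lists, 207 of 364 tested genes (56.9%) had an unadjusted p under 0.05 in edgeR's test, near the 49.3% of all tested genes, and DESeq2 called none at the same thresholds. In the respiratory chain list of 60 genes, 29 were lower and 1 higher at an adjusted p under 0.05 in edgeR's test, with sizes under the fold threshold. Over all 15881 tested genes, 3066 were lower and 3682 higher at that p. ATP5F1D, a subunit of ATP synthase, stood at -0.87 as counted and at -0.39 with the offsets, and its transcript had a GC content of 63.9%. HSPB1, a small heat shock protein gene, likewise stood at -0.80 and at -0.29 with the offsets. AKR1C1, an NRF2 target with near-identical relatives, stood at -0.83 and was called lower with the offsets (-1.08). Replication-dependent histone genes, whose mRNAs lack poly(A) tails, had a median of -0.52 over 16 genes (-0.30 with the offsets), with H3C4 called lower. Of 17 tested G1 cyclin, CDK and CDK inhibitor genes, CDKN1C fell as counted and not with the offsets, and 1 other gene rose with the offsets alone (median 0.03).

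Genes that fell were mostly of low level and lay in few of the lists. Of the 166 genes that rose, 52 were in a pathway list (31.3%), and of the 238 that fell, 5 were (2.1%), beside 4.21% of all tested genes. With the offsets these counts were 63 of 157 and 3 of 108. The lists were chosen with earlier results of these data known, so these shares are no independent evidence. HSPA6, a strictly stress-inducible heat shock gene, had the smallest adjusted p among those that fell both ways. It was at 6.86, 7.01 and 5.11 CPM in untreated cells and at 1.12, 1.33 and 0.941 CPM in the vehicle control (log2 fold change -2.48 ± 0.21, edgeR adjusted p = 7.5e-09). Its groups were well apart, and with the offsets the value was -2.18. SPON2, a secreted matrix protein gene, went from 4.06, 3.42 and 3.41 CPM to 0.825, 1.18 and 1.44 CPM (-1.65 ± 0.22). KRT3, a keratin of the cornea, went from 3.04, 3.09 and 2.96 CPM to 1.00, 1.23 and 0.996 CPM (-1.49 ± 0.21). The kinase gene PNCK had a log2 fold change of -2.37, the RNA-editing relative ADARB2 of -1.61, ARL6IP4 of -1.60 and KLHL31 of -1.004. The antisense RNAs NEBL-AS1 and ZNF436-AS1 stood at -1.96 and -1.05. PNCK, ARL6IP4, ADARB2 and both antisense RNAs share exon positions with a neighbouring gene, as IQSEC3 below does, so their counts are uncertain.

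The largest fitted fold changes belonged partly to genes with almost no counts. ATP8A2 had no count in the untreated libraries and 3, 4 and 5 counts in the vehicle control, which is at least 3.71-fold higher when the untreated group is set to 3 counts in all. EGFL6 and C4orf54 likewise had no untreated count, with bounds of at least 3.4-fold and 2.78-fold higher. In the other direction, ILDR2, TRIM58, IQSEC3, GPA33 and CTXND1 had no count in any vehicle control library. ILDR2 had 1, 2 and 6 counts in untreated libraries 1, 2 and 3, at least 3.24-fold lower in the vehicle control. The bounds of the others lay between 1.8 and 3.24. All of these genes passed the count filter through other A431 groups, as ATP8A2 did at a mean of 5.13 CPM with CKI plus doxorubicin. None was tested in the fit of only the 6 compared libraries, where 56 of the 64 named called genes were. The bounds leave out the counting error of the group that had counts. These genes rest on a few reads and support no statement on size.

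The fold changes followed the base composition of the transcripts. Over the 15843 tested genes with a known GC content and length, Spearman's rho of the log2 fold change was -0.57 with GC content and 0.28 with the length of the longest transcript. GC content and length were themselves related, with a rho of -0.30. Within 3 equal classes of transcript length, rho with GC content was -0.52, -0.58 and -0.50, and within 3 equal classes of GC content, rho with length was 0.21, 0.19 and 0.13. The median log2 fold change went from 0.26 in the lowest GC decile (median GC content 36.9%) to -0.46 in the highest (64.0%). By length it went from -0.18 in the decile of shortest transcripts (median 1057 bases) to 0.20 in the longest (9806 bases). The relation was strongest where counts were high, with a rho of -0.73 for genes over 32 CPM and -0.20 for genes under 1 CPM. These levels were means over all 15 A431 libraries. With the offsets, rho was 0.03 with GC content and 0.00 with length, which follows from how they were made.

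**Figure D3:**
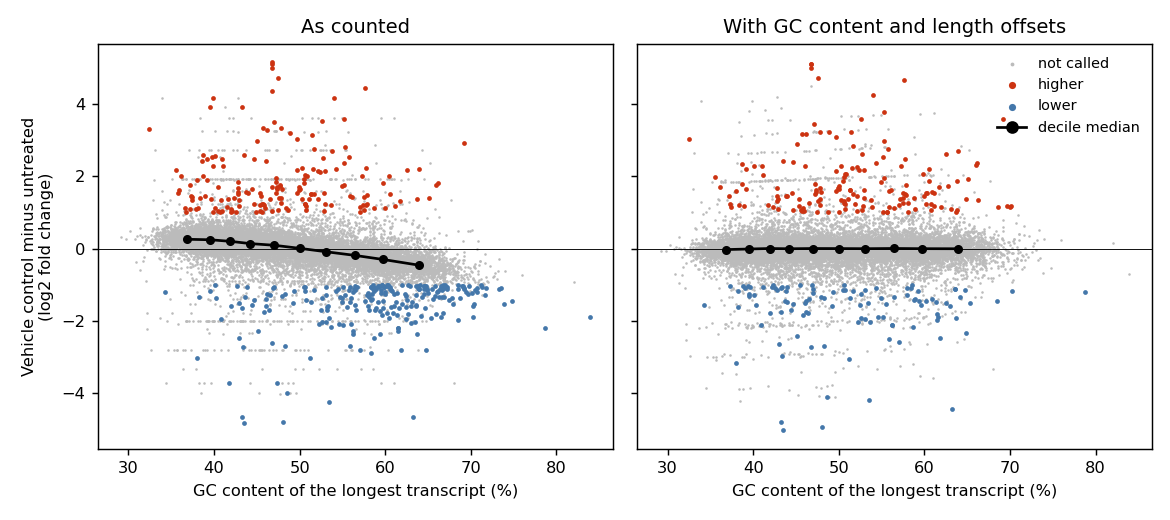
Log2 fold change (vehicle control minus untreated) of each tested gene against the GC content of its longest transcript in percent, as counted (left) and with the offsets (right), coloured by call, with the decile medians joined. As counted the medians run from 0.26 to -0.46, and the genes called lower crowd at high GC content, whereas with the offsets the medians lie at about 0.

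The 3 vehicle control libraries carried this relation to unequal degrees. Against the mean of the untreated libraries, the median difference in log2 CPM in the highest GC decile was -0.70 in vehicle control 1, -0.47 in vehicle control 2 and -0.19 in vehicle control 3. In the lowest GC decile it was 0.39, 0.27 and 0.11. Each untreated library, set against the other 2, stayed between -0.08 and 0.07 in every decile. Pairwise, rho with GC content was -0.60 to -0.64 between vehicle control 1 and an untreated library, and -0.23 to -0.38 for vehicle control 3. Among the untreated libraries the largest value was -0.30, between libraries 2 and 1, which is within the range of vehicle control 3. The labels give no extraction or sequencing batch, so a difference in library preparation between the groups and an effect of the vehicle on these genes cannot be told apart. Leaving out vehicle control 3, the library nearest to the untreated ones, raised the number of genes that fell from 238 to 372, and 189 rose.

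**Figure D4:**
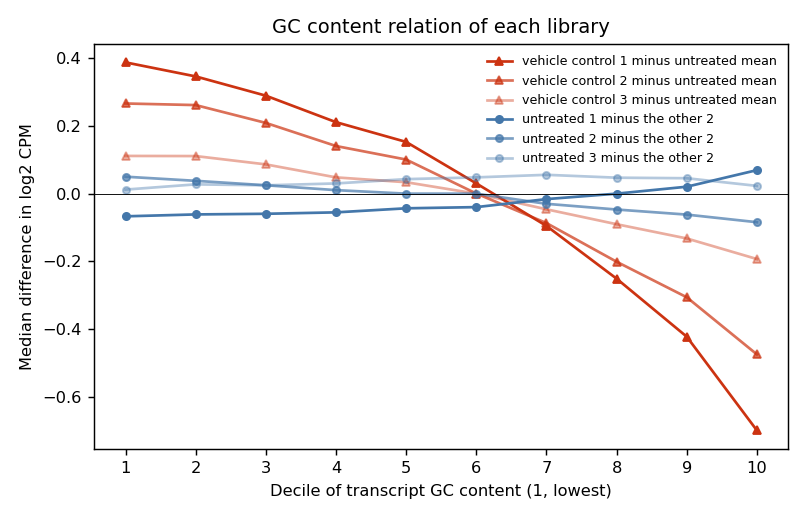
Median difference in log2 CPM in each decile of transcript GC content, for each vehicle control library against the untreated mean (triangles) and each untreated library against the other 2 (circles). The vehicle control lines cross 0 in the middle deciles and end at -0.70, -0.47 and -0.19, whereas the untreated lines stay within -0.08 to 0.07.

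The genes called in each direction differed in these properties. Genes that fell had a median GC content of 59.7%, against 48.4% over all tested genes, and genes that rose had 47.3%. The highest GC decile held 95 of the genes that fell and 8 of those that rose. The median of the longest transcript was 2836 bases for genes that rose and 2512 for genes that fell, both below the 3693 bases over all tested genes. Genes that rose had a median of 4 exons, genes that fell 5 and all tested genes 8. A mean under 2 CPM over all 15 A431 libraries was found for 32.5% of the genes that rose, 64.7% of those that fell and 22.2% of all. Of the 147 genes that fell only as counted, the median GC content was 62.5%. The 91 genes that fell both ways had a median GC content of 52.8%, and 83.5% of them were under 2 CPM by the same mean. The 126 that rose both ways had a median GC content of 50%. These shares are descriptions and were not tested.

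Some genes were called only as counted. The 4 of smallest adjusted p that rose were PMAIP1, which encodes the apoptosis activator NOXA, MXD1, a MAX partner, MACC1, and the membrane protein gene EMP1. Their log2 fold changes were 1.12, 1.19, 1.10 and 1.02 as counted and 0.89, 0.96, 0.75 and 0.78 with the offsets. All 4 stayed past the p threshold in edgeR's test. Among those that fell, beside ID1 and ALDH3A1, the chromatin protein gene SAMD1 went from 144, 124 and 158 CPM to 51.8, 68.4 and 85.2 CPM, and its log2 fold change of -1.05 became -0.55. CD74, the invariant chain of MHC class II, stood at -1.06 and at -0.87 with the offsets. In SAMD1 the vehicle control libraries were ordered as in the relation with GC content, with library 1 the lowest.

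The leading genes were also set beside the other A431 groups, whose libraries share the fit and the normalization. The 3 vehicle control libraries lay above all 12 other A431 libraries for 37 of the 126 genes that rose both ways, and below all of them for 34 of the 91 that fell both ways. Over all tested genes these shares were 5.77% and 2.79%. That is no like background, since the called genes were chosen for lying apart from the untreated libraries, which are 3 of the 12. Of 3680 tested genes with the vehicle control above all untreated libraries, 916 lay above all 12. Of 3005 with it below all untreated libraries, 443 lay below all 12. Some of the 91 had no vehicle control count and passed the count filter through other groups. TNFAIP3, at 815 to 862 CPM in the vehicle control, was at 326 to 353 CPM with CKI, 223 to 231 CPM with doxorubicin and 464 to 472 CPM with both. CXCL8 was likewise highest in the vehicle control, with 131 to 148 CPM with CKI and 56.3 to 66.6 CPM with doxorubicin. FOS behaved otherwise. It was at 719 to 894 CPM with CKI, which overlapped the vehicle control, and at 64.2 to 71.0 CPM with doxorubicin, below the untreated range of 112 to 146 CPM. KLF6 with CKI, at 463 to 566 CPM, also overlapped the vehicle control. CCN2 was at 33.6 to 34.3 CPM with doxorubicin and at 4.75 to 6.50 CPM with CKI. These levels are given as descriptions, without a test between treatments. Which of these groups received the vehicle is not given in the labels.

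**Figure D5:**
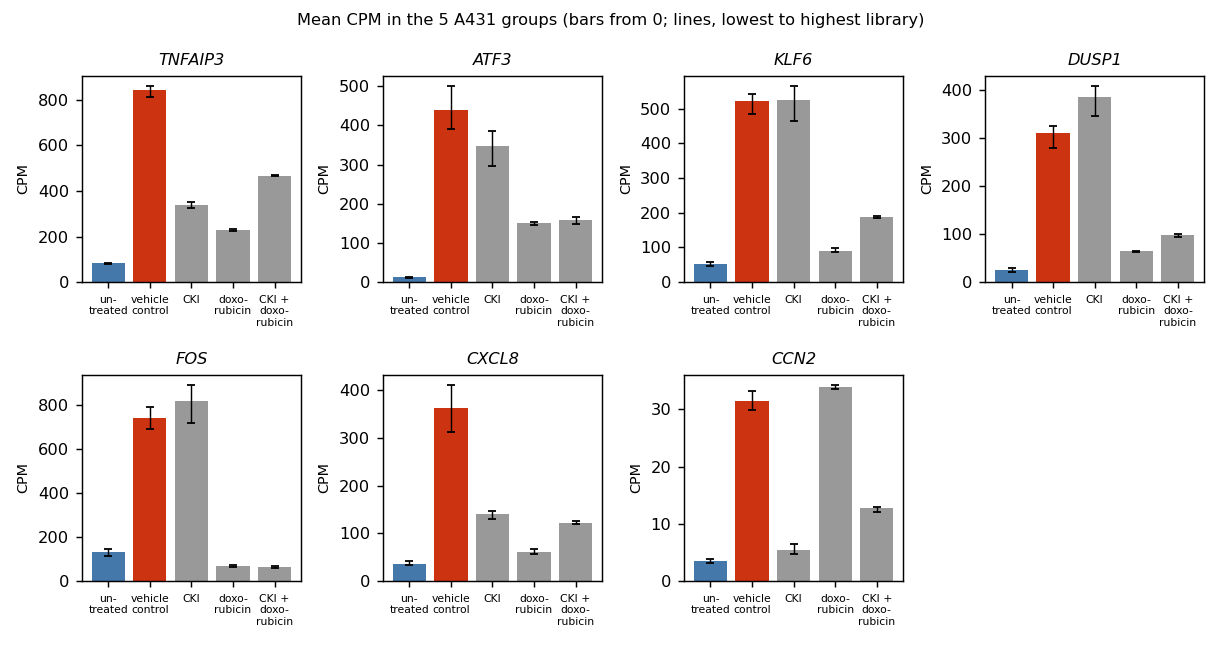
Mean CPM of 7 genes that rose in the 5 A431 groups, with bars from 0 and lines from the lowest to the highest of 3 libraries. Untreated cells are the lowest group for all but FOS. TNFAIP3, ATF3 and CXCL8 have their highest mean in the vehicle control, DUSP1 and FOS with CKI, and CCN2 with doxorubicin. For KLF6 the means with CKI and in the vehicle control are nearly equal (523 and 522 CPM).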

How the data were processed

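RNA from untreated and vehicle control A431 cells was sequenced in unstranded paired-end libraries, with 3 libraries per group. The table that the authors deposited holds raw counts of reads for each gene in 27 libraries, made, per the submitters' processing notes, from reads trimmed with Trim Galore 0.3.7 and aligned to hg19 with STAR 2.5.3a. The counting tool and annotation are not given in the sources used here. The accompanying paper describes other libraries of the series and not those of A431. Of 24566 rows, 1597 had no count in any library, and 24422 were matched to a symbol through RefSeq. Length and GC content of the longest GENCODE transcript (GRCh37) were found for 99.5% of rows. Rows under shared Ensembl identifiers with identical counts (416) were kept.

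The test of differential expression was edgeR's quasi-likelihood test (edgeR 4.0.16, R 4.3.3, with TMM, filterByExpr, glmQLFit and glmQLFTest) over all 15 A431 libraries, with 10 residual degrees of freedom. A gene was called at a Benjamini-Hochberg adjusted p under 0.05 with a change of over 1 in either direction on the log2 scale. Standard errors were the log2 fold change divided by the root of the F statistic. Offsets were a lowess (span 0.3) on GC content and then on log2 length. What was smoothed was each library's deviation in log2 CPM (prior count 2) from the gene's mean over all libraries in the fit. The fits were tested on simulated data. There any GC content relation was the same in all vehicle control libraries, unlike in the real ones, so unequal relations were not tested. Replicates of a group differed by more than sampling noise in every pair. The comparison, gene lists (724 entries, 16 not matched in the table) and the rule for named genes were chosen with earlier results of these data known. The rule took the 10 genes of smallest adjusted p in each direction that were separated between groups and called both ways, the 5 of largest change among them, the 4 of smallest adjusted p in each direction called only as counted, up to 4 called members of each list or, with none, 2 of smallest adjusted p, and TNFAIP3, ATF3, KLF6, IL1B, CYP1A1 and EGFR. Further list members were named after their values were seen, and results for some genes are not reported here. Standard errors include the spread between replicate libraries that the fit estimated over the A431 groups. The floor of 3 counts covers counting error only, in the group without counts. Alternatives were DESeq2 1.42.0, RLE factors, library size alone, the likelihood ratio test, other filters, the 6 compared libraries alone, each offset, 1 row per Ensembl identifier, a replicate block, and leaving out each library.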

Additional observations from a re-analysis of the deposited data

How the results depend on the processing

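No gene named by the rule changed direction under any alternative that gave it a value. Of 680 tested list members, 178 had the opposite sign with the offsets, none of them called either way, and RELA, NFKB1, NFKB2 and RELB were among these. None of the counts of genes that rose moved by more than 1.5 times except under the stricter filter and the adjusted p alone. The number of genes called was 404 as reported (166 rose, 238 fell). It was 174 with at least 10 counts in every library (103 rose, 71 fell), 263 with only the 6 compared libraries in the fit (144 fell), 265 with the GC content and length offsets (108 fell), 261 with the GC content offset alone (113 fell) and 6748 by adjusted p alone (3682 higher, 3066 lower). With the offsets and only the 6 compared libraries, an alternative chosen after seeing the data, 184 were called (135 rose, 49 fell). RLE factors gave 414, library size alone 403, no filter 397, the likelihood ratio test 501, the length offset 362, 1 row per Ensembl identifier 401 and DESeq2 386. Leaving out 1 library gave between 324 and 561 calls, with 153 to 189 rises and 159 to 372 falls. The lowest number of falls came without untreated 1 and the highest without vehicle control 3. Same-numbered libraries of the 2 groups had correlations of their deviations of -0.05, -0.03 and -0.02. These values cannot show whether the libraries share more than a number. The libraries were not taken as paired. The replicate block gave 386 calls (159 rose, 227 fell), and with the offsets 257 (98 fell). The rank correlation of the fold change with length, 0.28 as reported, was 0.21 without the filter, 0.35 with at least 10 counts, 0.34 with the 6 compared libraries and 0.23 with the mean over transcripts. Of 64 named genes called as counted, 55 were called with the offsets, and EMP1, at 1.02, dropped below the fold threshold in 10 of 20 alternatives.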
